A study of Rattus norvegicus and Mus musculus with 25 samples.

Results

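Acta2, Tagln, Myh11, Cnn1, Actg2, Pdgfrb, Rgs5, Cspg4, Kcnj8 and Abcc9 are genes widely used to mark vascular smooth muscle cells and pericytes. These 10 genes were followed by their symbols in 3 expression tables of heart muscle cells. All 10 were found in each table, among 28905 uniquely named rows in each of 2 rat tables and 54083 in a mouse table. All 10 passed the filter on low values in every table, which asked for at least 1 CPM (counts scaled so that each library sums to 1000000) in 2 rat or 3 mouse libraries.

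Smooth muscle cells and pericytes, together called mural cells, wrap blood vessels and control their width and stability. Contractile smooth muscle genes are switched on by serum response factor (SRF) and its partner myocardin, acting on CArG boxes near the genes' starts. Endothelial cells recruit pericytes with PDGF-B, which acts on the receptor PDGFR-beta. Several of the 10 genes are also made elsewhere: smooth muscle actin by immature cardiomyocytes and activated fibroblasts, PDGFR-beta by fibroblasts, and the channel subunit encoded by Abcc9 by cardiomyocytes. A level in these bulk libraries is therefore not a count of mural cells, and fewer cells of a type cannot be told apart from less RNA per cell.

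The rat libraries came from ventricular cardiomyocytes of 1-day-old SD rats, separated with trypsin and collagenase and preplated for 90 min to remove cells that attach fast. One table of 12 libraries held 6 groups of 2. These were an siRNA against Vldlr (si-Vldlr) with its control siRNA (si-Control_v), both at 50 nM for 60 h, Reelin with PBS, both for 48 h, and Vldlr overexpression (Vldlr OE, virus AAV9-cTnT-Vldlr) with Control (virus AAV9-CMV-GFP), both for 72 h. The cTnT promoter is a cardiomyocyte promoter, whereas CMV is active in many cell types, so treated and control virus differ in promoter as well as in cargo. A second table of 4 libraries held an siRNA against Thbs1 (si-Thbs1) and its own control siRNA (si-Control_t), 2 each, at 50 nM for 60 h. The mouse table held 9 libraries of cardiomyocytes from C57BL/6 mice at day 1, with 3 for each genotype. Vldlr f/f mice had both Vldlr copies floxed and no Cre, Myh6-Cre;Vldlr f/+ mice had 1 floxed copy, and Myh6-Cre;Vldlr f/f mice had both copies floxed, with Cre driven by the cardiomyocyte promoter of Myh6. No genotype without floxed Vldlr was used, and the sources used here give no method of isolation for the mouse cells. VLDLR is a receptor for Reelin, and the series names thrombospondin-1 (Thbs1) beside it as a ligand.

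The targeted genes were lower or higher as labelled, but none passed the test over all genes. Vldlr was 183 and 171 CPM in si-Vldlr and 252 and 257 CPM in si-Control_v (limma adjusted p = 0.348). In Vldlr OE it was 656 and 889 CPM, against 577 and 379 CPM in Control (adjusted p = 0.958). Thbs1 was 745 and 546 CPM in si-Thbs1 and 943 and 892 CPM in si-Control_t (adjusted p = 0.821). In mouse, Vldlr was 71.3, 78.9 and 85.1 CPM in Myh6-Cre;Vldlr f/f, 98.4, 112 and 100.2 CPM in Myh6-Cre;Vldlr f/+ and 195, 109 and 164 CPM in Vldlr f/f. Replicate 2 of Vldlr f/f lay within the range of Myh6-Cre;Vldlr f/+ for this gene. Whether the libraries within a group stem from different cultures or animals is not stated in the labels. The p-values then measure only the spread among these libraries, and that spread may be technical. With the most common value above 0 of each library set to 4 steps, there were 66088372 to 97773385 steps per library. A step may be only a fraction of a fragment, so the depth in reads is unknown and no counting interval is given.

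The rat cultures held strong fibroblast signal and little endothelial signal, the partner that pericytes accompany. Summed over 7 fibroblast markers, the level was 24316 to 39877 CPM in the 16 rat libraries and 2367 to 4429 CPM in the 9 mouse libraries. The 6 endothelial markers found in rat summed to 46.6 to 79.3 CPM, and the 7 found in mouse to 923 to 1299 CPM. The 16 pericyte and mural genes found outside the 10 summed to 532 to 744 CPM in the rat and 579 to 807 CPM in the mouse libraries. Mcam (177 to 281 CPM in rat), an adhesion molecule of mural and endothelial cells, and Anpep (74.2 to 121 CPM), a peptidase gene, were well above the filter in rat, whereas Vtn, Higd1b and Hey1 did not pass it. Vtn was listed at 0 in every library except those of si-Control_v, where it reached 0.103 CPM. Higd1b stayed at or under 0.304 CPM and Hey1 at or under 0.391 CPM. In mouse, Vtn was 1.01 to 6.62 CPM, Higd1b 3.22 to 6.47 CPM and Hey1 5.54 to 15.0 CPM. Rgs5 and Kcnj8, which mark pericytes most closely among the 10, were likewise low in rat. Cspg4 was 66.9 to 119.96 CPM in the 16 rat and 37.3 to 72.8 CPM in the 9 mouse libraries. Which cells the levels of the 10 genes came from was not tested. The tables were normalized separately, so these levels are given side by side and were not tested.

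Among the contractile genes in the 12-library rat table, the siRNA cultures were lower than the PBS and virus cultures for 4 of 5. Rgs5 among the pericyte genes had the same split. The share of all tested genes with this split was not counted, so whether 4 of 5 is unusual cannot be said. Acta2, the smooth muscle alpha actin that forms contractile filaments, was 2675 and 2493 CPM in PBS, 2752 and 2684 CPM in Reelin, 2499 and 3521 CPM in Control and 2658 and 2139 CPM in Vldlr OE. It was 1549.7 and 1412 CPM in si-Control_v and 1742 and 1891 CPM in si-Vldlr. The 4 siRNA libraries were thus the lowest 4 of the 12, and the other 4 groups overlapped one another in part.

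Actg2, the gamma actin of visceral and vascular smooth muscle, showed the widest step. It was 85.8 and 71.5 CPM in PBS, 79.96 and 80.99 CPM in Reelin, 73.2 and 67.8 CPM in Control and 85.5 and 89.2 CPM in Vldlr OE. In si-Control_v it was 24.5 and 12.96 CPM, and in si-Vldlr 23.6 and 22.8 CPM, so no siRNA library came near any other library.

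Myh11, the myosin heavy chain found almost only in smooth muscle, had the same order. It was 76.4 and 61.99 CPM in PBS, 92.1 and 77.5 CPM in Reelin, 88.9 and 93.8 CPM in Control and 67.9 and 116 CPM in Vldlr OE, and 26.2 and 22.1 CPM in si-Control_v and 27.4 and 29.5 CPM in si-Vldlr. Tagln, which encodes the actin-binding protein transgelin, was 1477 and 1471 CPM in PBS, 1408 and 1538 CPM in Reelin, 1714 and 1887 CPM in Control and 1868 and 1500.4 CPM in Vldlr OE. Its siRNA libraries were again the lowest, at 898 and 605 CPM in si-Control_v and 1089 and 1029 CPM in si-Vldlr.

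Cnn1, which encodes the actin-binding protein calponin 1, did not follow this split. It was 319 and 306 CPM in PBS and 306 and 324 CPM in Reelin, the highest 4 libraries. It was 193 and 225 CPM in Control, 225 and 194 CPM in Vldlr OE, 268 and 170.4 CPM in si-Control_v and 231 and 236 CPM in si-Vldlr. The range of si-Control_v spanned the other 3 groups, while both si-Vldlr libraries lay above those of Control and Vldlr OE.

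**Figure D1:**
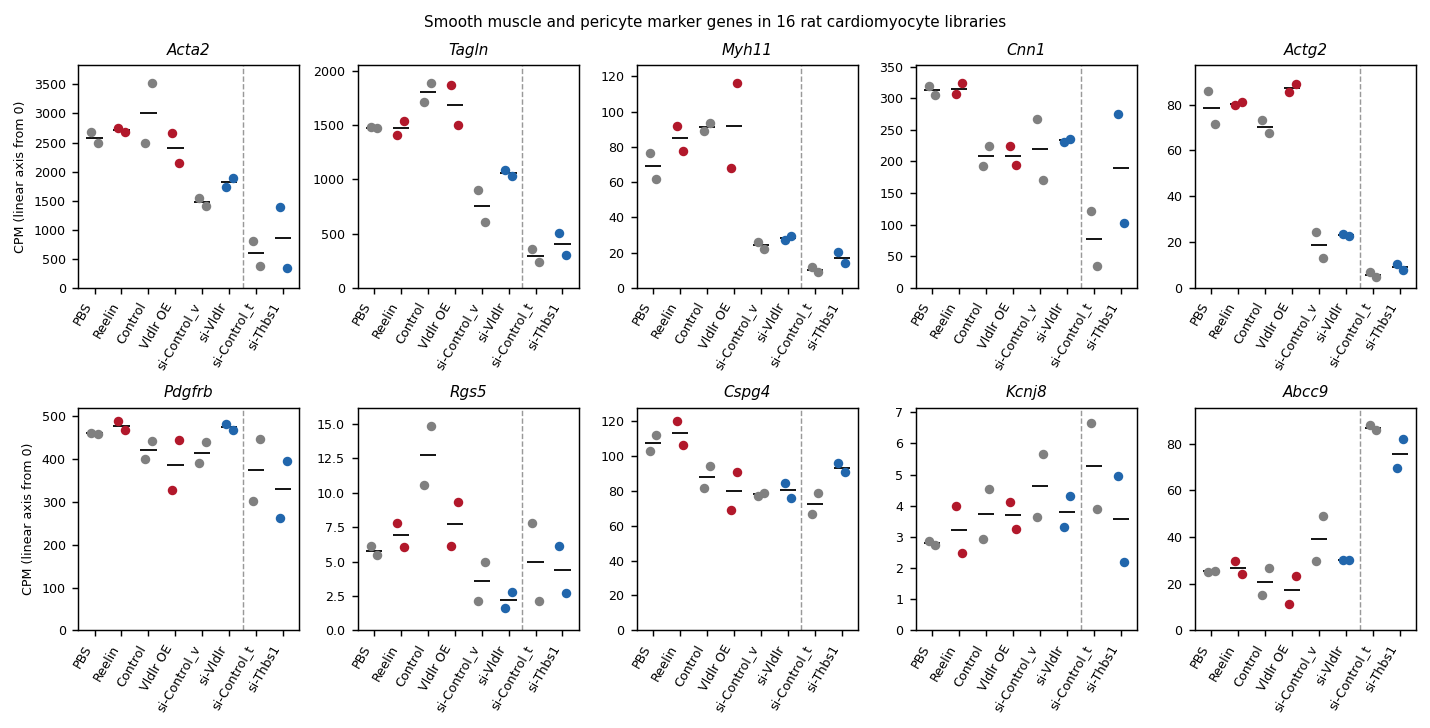
CPM (linear axes from 0) of the 10 genes in the 16 rat libraries, with a point per library, a bar at each group mean, grey for control groups, red for Reelin and Vldlr OE, and blue for the siRNAs against Vldlr and Thbs1. The dashed line separates the 2 tables, which were normalized separately. Acta2, Tagln, Myh11, Actg2 and Rgs5 are lower in all 4 siRNA libraries of the 12-library table than in its other 8.

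The stretch upstream of Acta2 and of Actg2 is shown because these actins belonged to the genes that were lowest in the siRNA cultures, and because CArG boxes are the textbook SRF sites of this gene class. Both are the 250 bases before the start of the gene as annotated by RefSeq on the rat build GRCr8, read on the gene's strand. Acta2 lies on the minus strand at chr1:241172504-241172753 and Actg2 on the minus strand at chr4:117594040-117594289. Capitals mark CArG-like sites, meaning CC, then 6 bases of which at most 1 is G or C, then GG.
Acta2: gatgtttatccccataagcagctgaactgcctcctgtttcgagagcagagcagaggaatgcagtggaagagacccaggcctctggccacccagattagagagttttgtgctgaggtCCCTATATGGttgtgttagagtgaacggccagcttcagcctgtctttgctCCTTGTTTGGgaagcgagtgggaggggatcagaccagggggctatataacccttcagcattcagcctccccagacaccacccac
Actg2: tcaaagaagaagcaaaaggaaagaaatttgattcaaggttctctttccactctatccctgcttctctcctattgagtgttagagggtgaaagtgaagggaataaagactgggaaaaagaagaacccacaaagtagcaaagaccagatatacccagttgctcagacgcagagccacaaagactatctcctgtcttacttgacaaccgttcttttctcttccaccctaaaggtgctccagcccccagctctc
The Acta2 stretch held 2 such sites, CCCTATATGG at 134 to 125 bases and CCTTGTTTGG at 84 to 75 bases before the start, and the Actg2 stretch held none. A start annotated elsewhere would move this window. The RefSeq table had an upstream stretch for 7 of the 10 genes, all but Tagln, Myh11 and Pdgfrb. Among those 7, Acta2 alone held a CArG-like site, which 8.08% of 33469 rat promoters of this length hold, while 0.693% hold at least 2. The CArG-like pattern was chosen after the strict CArG box, with A or T only between CC and GG, had been found in none of the 7 (1.50% of promoters hold it). TGACTCA, the AP-1 motif, was also found in none of the 7, against 4.05% of promoters. Motifs were searched on both strands, and a match or its absence in this window says nothing about binding.

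The step between siRNA and PBS cultures was tested as a comparison of si-Control_v with PBS, chosen after these values were seen. In this comparison 4 of the 10 genes fell and none rose at a limma adjusted p under 0.05, where 1.23% of 13860 tested genes fell and 1.72% rose. Actg2 had a 4.20-fold lower mean CPM (log2 fold change -2.07 ± 0.22 (SE), on the log2(CPM + 1) scale used for all fold changes, adjusted p = 0.000366). Myh11 was 2.87-fold lower (log2 fold change -1.48 ± 0.21, adjusted p = 0.00329). Tagln was 1.96-fold lower (-0.999 ± 0.17, adjusted p = 0.0119) and Acta2 1.74-fold lower (-0.80 ± 0.17, adjusted p = 0.0309). Each of the 4 is a contractile gene, and Actg2 was called in every alternative run.

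The other 6 genes did not pass in this comparison. Cnn1 (-0.55 ± 0.17, adjusted p = 0.156), Cspg4 (-0.46 ± 0.13, adjusted p = 0.117), Rgs5 (-0.64 ± 0.31, adjusted p = 0.357) and Pdgfrb (-0.15 ± 0.13, adjusted p = 0.618) had negative log2 fold changes. Abcc9 (0.58 ± 0.34, adjusted p = 0.456) and Kcnj8 (0.55 ± 0.25, adjusted p = 0.327) had positive ones. The 2 libraries of one group did not overlap those of the other for any of the 10 genes, as for 50.8% of all tested genes, and the median log2 fold change of the 10 was -0.59 against 0.04 for all genes. Leaving out PBS replicate 1 left Actg2 as the single called member, and leaving out PBS replicate 2 left 2 of the 10 called (Actg2 and Myh11). Without si-Control_v replicate 1, Cnn1 was called as well (-0.87, adjusted p = 0.00469). Acta2 lost its call in each of the 4 fits that left out a library (adjusted p = 0.0510 to 0.242) and without the filter on low values (0.116), and Tagln also lost its call when these groups were fitted alone (0.104). The groups also differ in transfection and in time (60 h against 48 h), which cannot be told apart here.

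Counts over lists of related genes in this comparison stand beside the 1.23% of all tested genes that fell, and no list was tested as a set. Of 20 tested smooth muscle contractile and SRF-myocardin genes outside the 10, 14 had negative and 6 positive values, and 2 fell: Lmod1, a leiomodin that nucleates actin filaments (-1.01 ± 0.18, limma adjusted p = 0.0122), and Cald1, caldesmon (-0.67 ± 0.12, adjusted p = 0.0145). Of 11 tested TGF-beta pathway genes 8 had negative values and 3 fell: Tgfb3, a TGF-beta ligand (-1.30 ± 0.16, adjusted p = 0.00115), Ctgf, a matricellular target of the pathway (-0.80 ± 0.12, adjusted p = 0.00588), and the ligand Tgfb1 (-0.47 ± 0.08, adjusted p = 0.0142). Of the 7 tested R4 RGS genes, the subfamily of Rgs5, 6 had negative values and 2 fell, Rgs1 (-0.77 ± 0.15, adjusted p = 0.0239) and Rgs4 (-1.01 ± 0.21, adjusted p = 0.0272). None of 13 tested pericyte genes outside the 10 passed, though all 13 had negative values (median -0.29), the smallest p being that of the Notch receptor gene Notch3 (-0.86 ± 0.20, adjusted p = 0.0533).

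Markers of other cells moved too, and their part in the result was not tested. The 6 epicardial markers summed to 120 to 122 CPM in si-Control_v and 164 to 171 CPM in PBS, and 2 of the 6 fell, Msln and Upk3b (log2 fold changes -0.72 ± 0.12 and -0.67 ± 0.11). The 7 fibroblast markers summed to 30739 to 32869 CPM in si-Control_v and 36847 to 39877 CPM in PBS. Single fibroblast markers went both ways: 5 of the 7 had positive values (median over the 7 of 0.40), 2 (Col1a1 and Col3a1) had negative ones, and Dcn, a fibroblast proteoglycan gene, rose (0.88 ± 0.19). The 7 cardiomyocyte markers found summed to 15347 to 19215 CPM in si-Control_v and 13753 to 14715 CPM in PBS, and Tnni3, cardiac troponin I, rose (0.65 ± 0.13). None of these markers was at 0 in every library of either group.

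**Figure D2:**
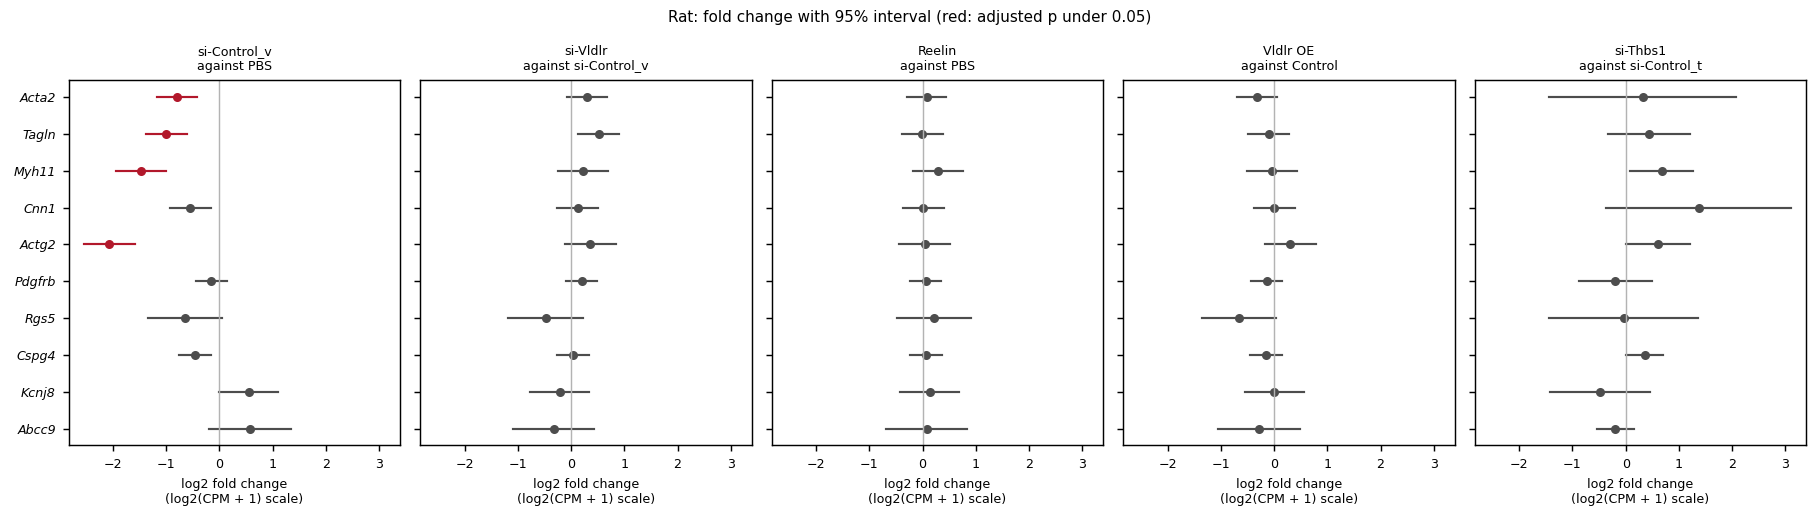
Log2 fold change (log2(CPM + 1) scale) of the 10 genes with its 95% interval in the 5 rat comparisons, red where the limma adjusted p was under 0.05. Red appears in the comparison of si-Control_v with PBS alone, for Acta2, Tagln, Myh11 and Actg2.

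The comparison of si-Vldlr with its control addressed loss of the receptor, and none of the 10 genes passed, where 0.0289% of 13860 tested genes were called. The 5 contractile genes all had positive log2 fold changes. Tagln had the smallest p (0.52 ± 0.17, 95% interval 0.13 to 0.91, limma adjusted p = 0.331), and both si-Vldlr libraries lay above both controls. The other 4 were Actg2 (0.36 ± 0.22), Acta2 (0.29 ± 0.17), Myh11 (0.23 ± 0.21) and Cnn1 (0.13 ± 0.17). Si-Control_v replicate 2 was the lowest of the 4 libraries for Acta2, Tagln, Myh11, Cnn1 and Actg2. Without si-Control_v replicate 1, Actg2 (0.80, adjusted p = 0.0285) and Tagln (0.81, adjusted p = 0.0416) were called, and all calls rose from 4 to 167. Without si-Control_v replicate 2, the value of Tagln was 0.24 and that of Actg2 -0.07.

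None of the 5 pericyte genes passed for si-Vldlr either. Pdgfrb, the receptor for PDGF-B, was 483 and 468 CPM in si-Vldlr and 391 and 439 CPM in si-Control_v (0.20 ± 0.13, limma adjusted p = 0.580). Rgs5, a brake on G-protein signalling and a marker of cardiac pericytes, was 1.60 and 2.75 and 2.17 and 4.96 CPM (-0.48 ± 0.31, adjusted p = 0.575). Groups did not overlap for Tagln, Acta2, Myh11 and Pdgfrb, 4 of the 10, as for 48.5% of all tested genes. Among the cell markers, all 7 cardiomyocyte markers tested had negative values (median -0.25) and none passed; their part in the values above was not tested.

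Reelin against PBS addressed the ligand of the receptor, and none of the 10 genes passed at an adjusted p under 0.05 (0.0144% of all genes did) or at an unadjusted p under 0.05 (1.36% of all genes). Log2 fold changes ran from -0.0024 for Tagln to 0.29 for Myh11, whose 95% interval was -0.18 to 0.76. For Acta2 the interval was -0.30 to 0.45, for Pdgfrb -0.24 to 0.35 and for Cspg4 -0.23 to 0.36. Cspg4, the NG2 proteoglycan on the pericyte surface, was 119.96 and 106 CPM in Reelin and 103 and 112 CPM in PBS. Rgs5 was 7.80 and 6.06 and 6.14 and 5.46 CPM. Myh11, Acta2 and Pdgfrb were the 3 without overlap, where 32.8% of all genes had none.

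Vldlr OE against Control addressed added receptor, and none of the 10 passed (0.00722% of all genes did). The 2 Control columns carry another name in the table and were assigned to Control by elimination, so each value here rests on that assignment. Rgs5 was 6.11 and 9.31 CPM in Vldlr OE and 10.5 and 14.9 CPM in Control (-0.66 ± 0.31, limma adjusted p = 0.958), and Control was the group with the highest Rgs5 in rat. Actg2 (0.31 ± 0.22) was the other gene without overlap, 2 of 10, where 25% of all genes had none. Acta2 (-0.31 ± 0.17) and Tagln (-0.10 ± 0.17) overlapped between the groups. Replicate 1 of Vldlr OE was lower than replicate 2 for Myh11, Actg2, Pdgfrb, Cspg4, Rgs5 and Abcc9, and Control column 1 was below column 2 for all of the 10 but Actg2.

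Si-Thbs1 against si-Control_t addressed loss of thrombospondin-1, and replicate 1 of both groups stood above replicate 2 for 7 of the 10 genes. Cnn1 was 276 and 103 CPM in si-Thbs1 and 121 and 34.3 CPM in si-Control_t. Acta2 was 1388 and 339.96 and 803 and 379 CPM, and Tagln 501 and 306 and 359 and 234 CPM. Within a replicate number, si-Thbs1 exceeded its control for Cnn1 and Tagln in both pairs and for Acta2 in replicate 1 alone.

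None of the 10 passed the test for si-Thbs1, where 0.0447% of 13416 tested genes were called. Myh11 was 20.04 and 14.2 CPM in si-Thbs1 and 11.8 and 8.83 CPM in si-Control_t (0.67 ± 0.24, limma adjusted p = 0.787). Actg2 was 10.5 and 7.88 and 6.78 and 4.66 CPM (0.61 ± 0.24, adjusted p = 0.898), and Cspg4 95.8 and 90.9 and 66.9 and 78.5 CPM (0.36 ± 0.14, adjusted p = 0.885). These 3 genes and Abcc9 (-0.20) were the 4 whose groups did not overlap, where 29.3% of all genes did not. Cnn1 had the largest value (1.37 ± 0.70, adjusted p = 1). It passed when the replicate number was a block (1.37, adjusted p = 0.0320) or without si-Control_t replicate 1 (2.27, adjusted p = 0.0157), while with 2 pairs alone the numbers are not shown to pair the samples.

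The summed fibroblast level was 24316 to 29578 CPM in si-Thbs1 and 28849 to 33530 CPM in si-Control_t, and all 7 fibroblast markers had negative values with none passing. The 6 epicardial markers summed to 112 CPM in both si-Thbs1 libraries and 132 to 136 CPM in si-Control_t, all 6 with negative values and none passing. The part of these cells in the values of the 10 genes was not tested. Beside the 12-library table, si-Control_t was low in contractile genes and high in Abcc9, at 87.8 and 85.8 CPM, where si-Control_v had 29.5 and 49.1 CPM. The tables were normalized separately, and this difference was not tested.

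Over the 12 rat libraries Pdgfrb and Cspg4 varied less than any of the 5 contractile genes. Pdgfrb ranged from 327 to 488 CPM and Cspg4 from 68.7 to 119.96 CPM, ratios of highest to lowest of 1.49 and 1.75, against at least 1.90 (Cnn1) for the contractile genes. Abcc9, the sulphonylurea receptor SUR2 of ATP-sensitive potassium (KATP) channels, was 24.99 and 25.5 CPM in PBS, 29.6 and 23.98 CPM in Reelin, 14.9 and 26.6 CPM in Control, 11.1 and 23.5 CPM in Vldlr OE and 30.2 and 30.1 CPM in si-Vldlr. Kcnj8, which encodes the channel's pore subunit Kir6.1, stayed between 2.47 and 5.66 CPM in all 12. Neither gene followed the drop of the contractile genes in the siRNA cultures, whereas Rgs5, at a few CPM, did. Rgs5 was 1.60 to 4.96 CPM in the 4 siRNA libraries and 5.46 CPM or more in the others of the 12. Each of the 4 siRNA libraries had more Abcc9 than each PBS library. They were not apart from all other libraries, since Reelin replicate 1 (29.65 CPM) stood just above si-Control_v replicate 1 (29.55 CPM). In si-Control_v against PBS all 4 KATP subunit genes (with Kcnj11 and Abcc8) had positive values (median 0.56), and none passed.

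In mouse, Abcc9 was the single one of the 10 genes that separated the 3 genotypes. It was 248, 249 and 379 CPM in Vldlr f/f, 213, 179 and 231 CPM in Myh6-Cre;Vldlr f/+ and 94.2, 169 and 141 CPM in Myh6-Cre;Vldlr f/f. Every library of a genotype thus lay below every library of the genotype before it. Abcc9 was 1 of 11 genes with such a descending order, 0.0737% of 14922 tested genes, and no gene had the ascending order. Any full order of 3 small groups is rare for a single gene. How many genes would show this order without any effect was not tested, so the share does not single out Abcc9.

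Abcc9 did not pass the test over all genes in any mouse comparison. Between Myh6-Cre;Vldlr f/f and Vldlr f/f the log2 fold change was -1.12 ± 0.27 (95% interval -1.71 to -0.53, n = 3 each, limma unadjusted p = 0.00168, adjusted p = 0.997), a 2.16-fold lower mean. Between Myh6-Cre;Vldlr f/f and Myh6-Cre;Vldlr f/+ it was -0.65 ± 0.27 (interval -1.24 to -0.06, adjusted p = 1). Between Myh6-Cre;Vldlr f/+ and Vldlr f/f it was -0.47 ± 0.27 (interval -1.06 to 0.12, adjusted p = 0.999). These 3 comparisons share libraries with one another. No gene at all passed in any of the 3 by limma, with 453, 138 and 362 genes at an unadjusted p under 0.05, and none by edgeR, with 344, 140 and 349.

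Kcnj8 lies beside Abcc9 and encodes the pore of the same channel. In the mouse build GRCm38 (GENCODE M21) Kcnj8 lies at chr6:142564837-142571614 and Abcc9 at chr6:142587862-142702315, both on the minus strand, 16247 bp apart with no protein-coding gene between. Kcnj8 was 44.2, 28.7 and 39.8 CPM in Vldlr f/f, 21.3, 33.5 and 28.7 CPM in Myh6-Cre;Vldlr f/+ and 27.4, 30.9 and 18.98 CPM in Myh6-Cre;Vldlr f/f. Its genotypes overlapped (-0.53 ± 0.27 for Myh6-Cre;Vldlr f/f relative to Vldlr f/f, adjusted p = 0.997). Of the 4 KATP subunit genes, all 4 had negative values in each Cre genotype against Vldlr f/f, with medians of -0.49 and -0.39, and none passed.

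Among the pericyte surface genes Cspg4 stood lower in every Cre library without passing the test. It was 69.4, 71.4 and 72.8 CPM in Vldlr f/f, 47.1, 43.8 and 50.9 CPM in Myh6-Cre;Vldlr f/+ and 61.2, 43.8 and 37.3 CPM in Myh6-Cre;Vldlr f/f. All 6 Cre libraries lay below the 3 without Cre, and the Cre genotypes overlapped each other. The share of all tested genes with this pattern of 6 below 3 was not counted. The log2 fold change from Vldlr f/f was -0.61 ± 0.22 with both copies floxed and -0.58 ± 0.22 with 1 (limma adjusted p = 0.997 and 0.999), and both rest on the same 3 libraries of Vldlr f/f. The medians over all tested genes were -0.11 and -0.06 in the same order.

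Pdgfrb was 108, 114 and 113 CPM in Vldlr f/f, 83.9, 68.8 and 121 CPM in Myh6-Cre;Vldlr f/+ and 96.3, 71.1 and 86.3 CPM in Myh6-Cre;Vldlr f/f (-0.41 ± 0.23 for the last against the first, adjusted p = 0.997). Rgs5 was 236, 266 and 302 CPM, 168, 178 and 283 CPM and 227, 239 and 212 CPM in the same order (-0.24 ± 0.23, adjusted p = 0.997). For both genes replicate 3 of Myh6-Cre;Vldlr f/+ stood well above the other 2 of its group, and for Rgs5 the neighbouring genotypes did not differ beyond this spread.

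The contractile genes in mouse took no common direction in either Cre genotype against Vldlr f/f. For Myh6-Cre;Vldlr f/f relative to Myh6-Cre;Vldlr f/+ each had a negative log2 fold change, and none passed. These were Acta2 -0.25 ± 0.37, Tagln -0.35 ± 0.22, Myh11 -0.56 ± 0.49, Cnn1 -0.12 ± 0.25 and Actg2 -0.51 ± 0.37. Acta2 was 328, 1012 and 388 CPM in Vldlr f/f, where replicate 2 stood apart from the others. It was 807, 874 and 981 CPM in Myh6-Cre;Vldlr f/+ and 820.2, 799.6 and 626 CPM in Myh6-Cre;Vldlr f/f (0.81 ± 0.37 and 0.56 ± 0.37 against Vldlr f/f, limma adjusted p = 0.999 and 0.997). Tagln was 45.03, 54.6 and 48.1 CPM, 73.8, 61.98 and 71.4 CPM and 65.6, 40.3 and 58.3 CPM in the same order of genotypes, and Myh6-Cre;Vldlr f/+ lay above Vldlr f/f without overlap (0.48 ± 0.22, adjusted p = 0.999).

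Myh11 was 24.5, 25.1 and 29.7 CPM in Vldlr f/f, 35.1, 8.12 and 25.9 CPM in Myh6-Cre;Vldlr f/+ and 23.1, 8.51 and 10.99 CPM in Myh6-Cre;Vldlr f/f. Myh6-Cre;Vldlr f/f lay below Vldlr f/f without overlap (-0.97 ± 0.49, limma adjusted p = 0.997), while replicate 1 of Myh6-Cre;Vldlr f/+ was the highest of all 9. Cnn1 (10.6 to 18.9 CPM over the 9 libraries) and Actg2 (2.60 to 8.20 CPM) overlapped in every comparison of genotypes.

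**Figure D3:**
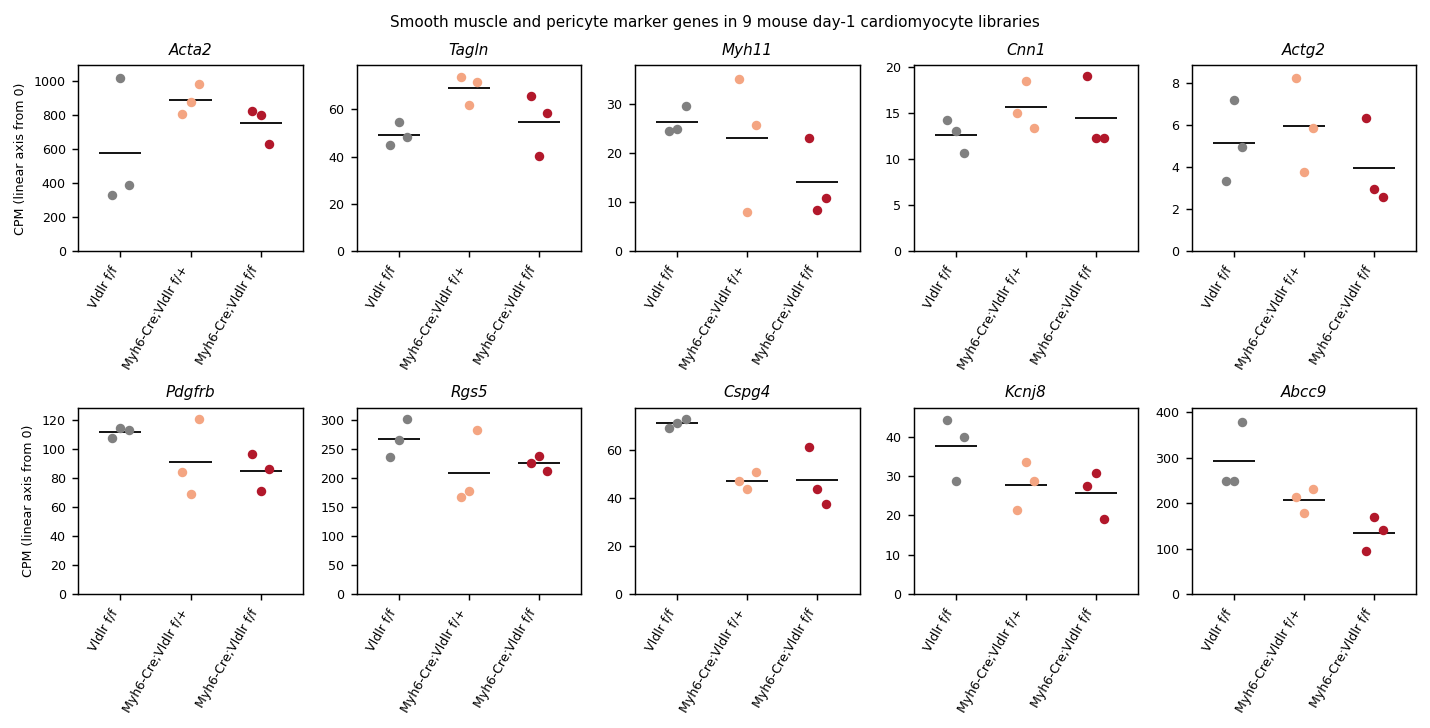
CPM (linear axes from 0) of the 10 genes in the 9 mouse libraries, with a point per library, a bar at each group mean, grey for Vldlr f/f, orange for Myh6-Cre;Vldlr f/+ and red for Myh6-Cre;Vldlr f/f. Abcc9 descends over the 3 genotypes without overlap, Cspg4 is lower in all 6 Cre libraries, and Acta2 is spread by replicate 2 of Vldlr f/f.

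Over the 10 genes, the median log2 fold change was -0.37 for Myh6-Cre;Vldlr f/f relative to Vldlr f/f, where all tested genes had -0.11. Scaling by median ratios moved the latter to -0.002, and on that scale Abcc9 was at -0.996 and Cspg4 at -0.48. Groups did not overlap for 4 of the 10 (Abcc9, Cspg4, Myh11 and Pdgfrb, all lower), where 6.81% of tested genes were lower without overlap. For Myh6-Cre;Vldlr f/+ relative to Vldlr f/f the median was -0.36 against -0.06, and 3 of the 10 did not overlap (Abcc9 and Cspg4 lower, Tagln higher), where 5.97% of genes did not. Between the Cre genotypes (both copies floxed minus 1 copy) it was -0.18 against -0.06, 9 of the 10 had negative values, and Abcc9 alone did not overlap, where 2.49% of genes did not.

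Other mural genes in mouse passed in no comparison. Of 16 tested pericyte genes outside the 10, 14 had negative values for Myh6-Cre;Vldlr f/f relative to Vldlr f/f (median -0.17), led by Notch3 (-0.67 ± 0.26) and Vtn (-0.83 ± 0.37), and 8 of 16 had for Myh6-Cre;Vldlr f/+ relative to Vldlr f/f (median -0.08). The 6 epicardial markers summed to 61.7 to 154 CPM in Vldlr f/f, 109 to 440 CPM in Myh6-Cre;Vldlr f/+ and 113 to 328 CPM in Myh6-Cre;Vldlr f/f. The 7 endothelial markers summed to 963 to 1292 CPM, 923 to 1125 CPM and 963 to 1299 CPM, and the 8 cardiomyocyte markers to 40675 to 50422 CPM, 42190.4 to 46279 CPM and 37165 to 46296 CPM in that order of genotypes. For Myh6-Cre;Vldlr f/+ relative to Vldlr f/f, all 7 fibroblast, all 6 epicardial and all 5 blood markers had positive values. Their medians were 0.33, 1.26 and 0.42, and none passed. For Myh6-Cre;Vldlr f/f relative to Vldlr f/f, 4 of 7 fibroblast, 6 of 6 epicardial and 3 of 5 blood markers had positive values, and none passed. None of these markers was at 0, and their part in the values of the 10 genes was not tested.

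**Figure D4:**
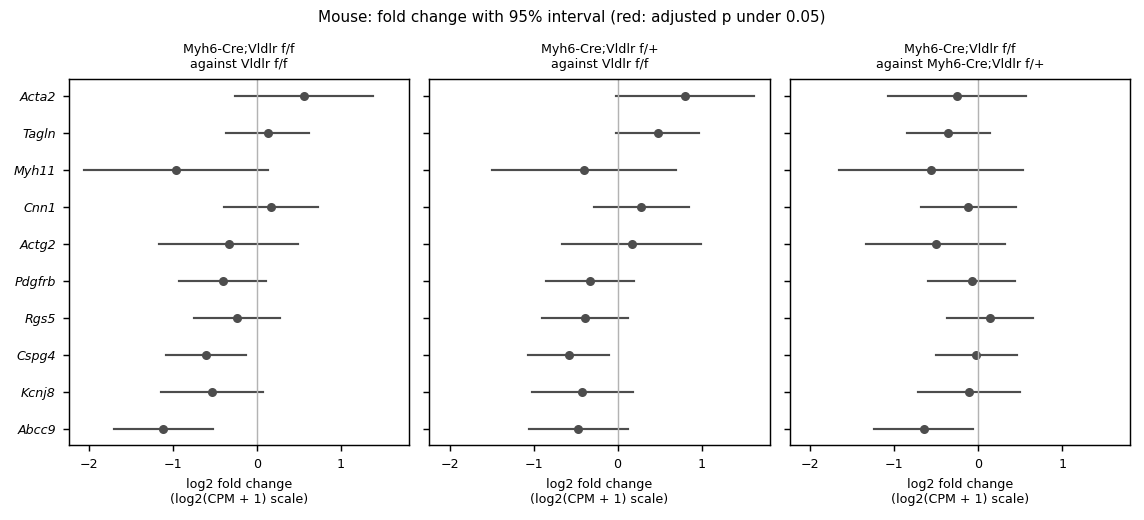
Log2 fold change (log2(CPM + 1) scale) of the 10 genes with its 95% interval in the 3 mouse comparisons of genotypes; none had a limma adjusted p under 0.05. The interval of Abcc9 lies below 0 for Myh6-Cre;Vldlr f/f relative to Vldlr f/f (-1.71 to -0.53).

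The genes whose pattern over libraries lay nearest to that of Acta2 and Rgs5 were listed as a description, with the root mean square difference of their log2(CPM + 1) deviations as the measure. Over the 12 rat libraries and 11115 genes, Fstl3, Mex3b, P4ha3, Ggta1 and Galnt18 lay nearest to Acta2 (0.12 to 0.15, where Acta2 itself deviated by 0.37), and Tagln ranked 25th. Nearest to Rgs5 were Rgs4 (0.28), Sparcl1, Myom2, Cpxm2 and Cnnm2 (Rgs5 itself 0.74), and Myh11 ranked 35th. Rgs4 is a close relative of Rgs5 and its neighbour in the rat genome, with no protein-coding gene between. Over the 9 mouse libraries and 11354 genes, Zbtb4, RP23-440D19.2, Nkd2, Slc35f6 and Dynlt1b lay nearest to Acta2 and Tspan13, Thap1, Cd81, Taf3 and RP24-75N6.3 nearest to Rgs5, with Pdgfrb ranked 67th for Rgs5. The nearest genes in rat and in mouse did not include the same gene for either.

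Copies and overlaps were looked at in mouse only. Of the 50-base words in the mouse Acta2 transcript, 0.326% were shared with another actin gene, and 0.391% of those of Myh11 with another myosin heavy chain gene, while Actg2, Tagln and Cnn1 shared none with their relatives. In mouse, Tagln at chr9:45929619-45936058 overlaps exons of the antisense gene Gm48529 over 1241 bases and of the protein-coding gene Pcsk7 on the other strand over 108 bases, and Abcc9 those of 5330439B14Rik over 158 bases. The sources used here do not give whether the counting used strand, so reads from these partners cannot be told apart.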

How the data were processed

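RNA was sequenced from 16 rat and 9 mouse libraries of heart muscle cells. The submitters' processing notes name HISAT2 2.1.0, StringTie 1.3.4 and edgeR 3.20.9 with the builds rn6 and mm10, with no annotation release given in the sources used here. The values the authors deposited are CPM: every column sums to 1000000. A table holds 28909 rat or 54087 mouse rows, of which 4 with repeated date-like names were left out. Columns were matched to samples by name, except 2 named Blank, which were assigned to Control by elimination, and whose numbers were not taken as replicate numbers.

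Values were fitted with limma 3.58.1 under R 4.3.3, using a trended variance prior and log2(CPM + 1), a scale that understates the change of low genes. All groups of a table entered 1 fit, and genes with at least 1 CPM in 2 rat or 3 mouse libraries were tested. P-values were adjusted by Benjamini-Hochberg over all tested genes, and an adjusted p under 0.05 was called. The fit was also run on simulated data, with the spreads shuffled over genes and changes planted only in genes with higher means. How often it would find a change in the low members was therefore not tested. In mouse, 100% of values were whole multiples of a step within 0.05 steps, and edgeR's quasi-likelihood test (4.0.16) was run on the step numbers as an added alternative; in rat 99.1% to 99.3% were, and no count test was run. The most common value above 0 in a library was set to 4 steps, and the step numbers scale with this setting. Depth, from 66088372 to 97773385 steps per library, is not known in reads.

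The 10 genes, the gene lists and the comparisons were chosen with earlier results of these data known. From each list the text names at most 3 genes, those with the smallest p in the comparison described, along with the 10 genes and Vldlr and Thbs1 always; Mcam, Anpep, Vtn, Higd1b and Hey1 as examples of pericyte markers, Col1a1 and Col3a1, Kcnj11 and Abcc8 to complete the channel and the comparison of si-Control_v with PBS were chosen after values were seen. Same-numbered libraries deviated together between Myh6-Cre;Vldlr f/f and Myh6-Cre;Vldlr f/+ (correlations over genes of 0.46, 0.44 and 0.33). Against Vldlr f/f the correlations were -0.37, -0.29 and 0.055 for Myh6-Cre;Vldlr f/f and -0.28, -0.54 and -0.052 for Myh6-Cre;Vldlr f/+. The numbers are therefore not shown to pair the samples, and the fit reported used no pairs. Rat upstream sequences are RefSeq's on GRCr8 and were matched by symbol; mouse positions are GENCODE M21 on GRCm38.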

Additional observations from a re-analysis of the deposited data

How the results depend on the processing

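Alternatives were other pseudocounts (0.5 and 0.1), no filter or a filter at 5 CPM, median-ratio scaling, no variance trend, the compared groups alone, a replicate block, each library left out in turn and, in mouse, edgeR on step numbers. Leaving out a rat library leaves a lone sample that is assumed to vary like the other groups. Called members ranged over left-out libraries from 0 to 2 for si-Vldlr (2 without si-Control_v replicate 1), from 0 to 1 for si-Thbs1 (1 without si-Control_t replicate 1) and from 1 to 4 for si-Control_v against PBS (1 without PBS replicate 1 and 2 without PBS replicate 2). Under the replicate block 1 member was called for si-Thbs1, Cnn1, while the calls over all genes went from 6 to 43; in that comparison the labels give numbers only (correlation 0.41), and the block changed no other member's call in any comparison. No paired analysis was possible for Vldlr OE because the numbers of the Control columns, assigned by elimination, could not be tied to the labels' replicate numbers. In the other comparisons no member was called under any alternative. Over all genes, calls ranged across alternatives from 3 to 167 for si-Vldlr (4 in the fit reported, 167 without si-Control_v replicate 1), 1 to 13 for Reelin (2, and 13 for the groups alone) and 1 to 257 for Vldlr OE (1, with 257 when Vldlr OE replicate 2 was left out and 80 without Control column 1). They ranged from 0 to 185 for si-Thbs1 (6, with 0 without the filter and 185 without si-Control_t replicate 1), from 180 to 613 for si-Control_v against PBS (408, with 180 without PBS replicate 1, 191 without PBS replicate 2, 215 for the groups alone and 613 without si-Control_v replicate 1) and from 0 to 1 in mouse (0). The cause was not tested.

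Under the alternatives 1177 results stayed the same, and 45 changed sign, each in a gene not called in the fit reported. The 1177 cover genes that kept direction and call. They also include counts of called members and medians over the members that stayed similar. Other than by leaving out a library, the sign changed for Cnn1 in Reelin against PBS (-0.0099 with median-ratio scaling) and for Cspg4 in Myh6-Cre;Vldlr f/f against Myh6-Cre;Vldlr f/+ (0.047 with median-ratio scaling and 0.072 with edgeR). Leaving out a library changed the sign of the values below, given as lowest to highest log2 fold change. In si-Vldlr against si-Control_v these were Abcc9 -0.69 to 0.029, Actg2 -0.075 to 0.80, Cnn1 -0.20 to 0.45, Cspg4 -0.040 to 0.12 and Kcnj8 -0.48 to 0.048. In Reelin against PBS these were Abcc9 -0.072 to 0.22, Actg2 -0.091 to 0.17, Cnn1 -0.029 to 0.053, Cspg4 -0.019 to 0.16, Kcnj8 -0.13 to 0.40 and Tagln -0.066 to 0.062. In Vldlr OE against Control these were Abcc9 -0.80 to 0.22, Cnn1 -0.11 to 0.12, Cspg4 -0.35 to 0.047, Kcnj8 -0.25 to 0.25, Myh11 -0.42 to 0.34, Pdgfrb -0.36 to 0.081 and Tagln -0.26 to 0.054. In si-Thbs1 against si-Control_t these were Acta2 -0.70 to 1.33, Pdgfrb -0.49 to 0.11 and Rgs5 -0.78 to 0.71. In Myh6-Cre;Vldlr f/f relative to Vldlr f/f these were Cnn1 -0.030 to 0.26 and Tagln -0.018 to 0.33. In Myh6-Cre;Vldlr f/+ relative to Vldlr f/f these were Actg2 -0.061 to 0.41 and Myh11 -0.80 to 0.19. In Myh6-Cre;Vldlr f/f against Myh6-Cre;Vldlr f/+ these were Cnn1 -0.31 to 0.0045, Cspg4 -0.22 to 0.13, Kcnj8 -0.29 to 0.085 and Pdgfrb -0.26 to 0.14. The cause was not tested. Kcnj8, Rgs5 and Actg2 lie at a few CPM in some groups, and the reads behind those values are not known.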
